A study of Lithobates pipiens with 72 samples.

Results

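Tadpoles of the leopard frog (Lithobates pipiens) were exposed to 2 structurally related energetic compounds, nitroguanidine (NQ) and methylnitroguanidine (MeNQ), and the responses to the pair at 1 equal molar concentration were compared. MeNQ carries a methyl group that NQ lacks. The quantity examined is the response to MeNQ at 851 mg/L minus the response to NQ at 750 mg/L, each response being the exposed group minus the control group of its own experiment. Both concentrations, as the sample labels give them, correspond to 7.2 mmol/L. The series text gives other target concentrations than the labels for some doses, and the labels were followed. The 16 libraries of these 4 groups, 4 libraries each, were chosen by their labels out of 72 in the series, and the model was fitted to all 40 libraries of both experiments.

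Each library represented 5 whole tadpoles from 1 beaker, which were 7 to 10 days old when an exposure of 96 h began. The 4 groups were the NQ control, NQ at 750 mg/L, the MeNQ control and MeNQ at 851 mg/L. The labels give no strain, no genetic alteration and no further agent for any of them. Each compound had its own control, so compound and experiment are separated only through those controls. Whole bodies mix all tissues, and fewer cells of a type and less RNA per cell cannot be told apart in any result here.

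NQ is used in propellants and insensitive munitions, and MeNQ is its methylated relative. In vertebrates a foreign compound can alter transcripts of the enzymes that oxidise and conjugate it, of antioxidant defence and of immune and stress pathways. Immediate-early genes are a further class, whose transcription rises within minutes of a stimulus and soon falls again.

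Each library held between 5.50 M and 21.7 M estimated counts. The range was 5.50 M to 14.5 M at MeNQ 851 mg/L and 13.3 M to 21.7 M in the MeNQ controls, so depth moved with exposure in that experiment, and its part in the results was not tested. Transcripts carried the name of a Xenopus protein, and 44.2% of the counts fell on transcripts with no informative name. Markers of several organs were present in all 16 libraries: 3 haemoglobin subunits of red cells summed to between 6950 and 14300 CPM (estimated counts scaled to a common library total, in counts-per-million), 9 pancreatic enzymes to between 7900 and 21100 CPM, and 5 lens gamma-crystallins to between 1610 and 3910 CPM. Lanes 1 to 3 held the NQ libraries and lanes 6 and 7 the MeNQ libraries. For libraries A to D the lanes were 2, 2, 3 and 1 in the NQ controls and 1, 3, 1 and 1 at NQ 750 mg/L. They were 6, 7, 6 and 7 in the MeNQ controls and 7, 7, 6 and 7 at MeNQ 851 mg/L. Lane was thus not balanced between exposed and control libraries in either experiment.

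Of 14068 transcripts tested, 16 had a MeNQ response that differed from the NQ response at an adjusted p under 0.05 (edgeR quasi-likelihood F test, Benjamini-Hochberg adjustment). For 8 the MeNQ response was the higher one (0.0569% of those tested) and for 8 the lower one (0.0569%). Named transcripts with the higher MeNQ response were neutrophil cytosol factor 1 and arachidonate 5-lipoxygenase-activating protein-like, both of phagocytic leukocytes, with EVI2A-like, a mitochondrial trans-2-enoyl-CoA reductase and neuromodulin-like. Those with the lower MeNQ response were the transcription factor NR4A2, ankyrin-3, ephrin type-B receptor 3, glutamate receptor-interacting protein 1 and tubulin polymerization-promoting protein family member 3. The other 6 transcripts had no informative name.

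The called differences were between 0.459 and 1.77 in size on the log2 scale, and 8 of the 16 reached 2-fold. In 15 of the 16 the fitted responses to the compounds had opposite signs. In 6 of the 16 the exposed libraries lay wholly on one side of their controls in both experiments, and on opposite sides. This held for 17 of all transcripts (0.121%), and as the same values made the calls it is only a description. Within a single experiment, exposed and control libraries did not overlap in 925 of the 14068 transcripts for MeNQ and in 506 for NQ.

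The calls depended on single libraries and on the fit. None of the 16 passed when only the 16 libraries were fitted, and none passed against a 2-fold minimum. With the sequencing lane as a term, chosen after the data were seen, 4 passed: NR4A2, trans-2-enoyl-CoA reductase, ephrin type-B receptor 3 and 1 unnamed transcript. The count was 1 without NQ control C, NQ 750 mg/L B, NQ 750 mg/L C, MeNQ control A or MeNQ 851 mg/L C. It was 2 without NQ control A, 3 without MeNQ 851 mg/L A, 5 without MeNQ 851 mg/L D, 6 without MeNQ control C and 7 without NQ 750 mg/L A.

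**Figure D1:**
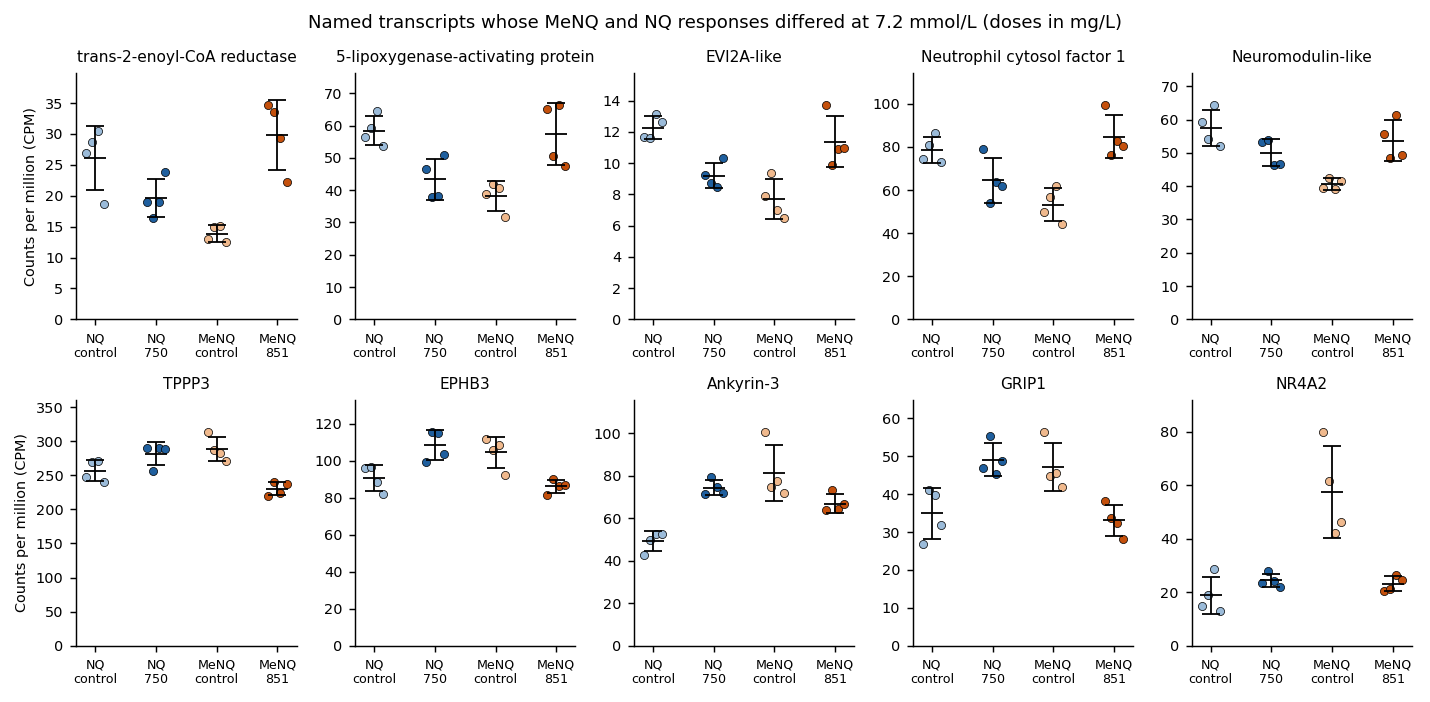
Level in CPM of the 10 named transcripts whose MeNQ and NQ responses differed, in each of the 16 libraries (points), with the mean and 1 SD of each group of 4 (bars). The upper row holds transcripts with the higher MeNQ response and the lower row those with the lower one; NR4A2 is between 42.1 and 80.0 CPM in the MeNQ control and at most 28.6 CPM in the other 3 groups.

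NR4A2 (nuclear receptor subfamily 4 group A member 2) is an orphan nuclear receptor induced as an immediate-early gene. Its level was 80.0, 61.7, 42.1 and 46.1 CPM in MeNQ control libraries A to D and 20.4, 21.4, 26.6 and 24.5 CPM at MeNQ 851 mg/L. In the NQ experiment it was 14.7, 19, 28.6 and 12.8 CPM in the controls and 23.6, 27.8, 24.4 and 22.1 CPM at 750 mg/L. Every MeNQ-exposed library was below every MeNQ control, while the NQ groups overlapped. The MeNQ response was -1.31 ± 0.19 (log2 fold change ± SE, edgeR adjusted p = 0.000464) and the NQ response 0.38 ± 0.19 (adjusted p = 0.67). Their difference was -1.69 ± 0.27, with a 95% interval from -2.24 to -1.14 (edgeR adjusted p = 0.00683). Among the 16 called transcripts it was the only one that passed without each of the 16 libraries in turn.

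The MeNQ control was the highest of the 10 groups for NR4A2. It stood above the NQ control by 1.61 ± 0.19 on the log2 scale (edgeR adjusted p = 4.18e-06), and MeNQ 851 mg/L against NQ 750 mg/L gave -0.08 ± 0.19 (adjusted p = 0.964); both ratios share libraries with the difference above. NR4A2 averaged 26.5 ± 4.40, 18.3 ± 2.34 and 18.9 ± 1.41 CPM (SD, n = 4) at 34, 170 and 4225 mg/L of MeNQ. It averaged 25.3 ± 3.57, 33.9 ± 0.937 and 19.9 ± 3.41 CPM at 30, 150 and 3750 mg/L of NQ. All 4 MeNQ doses thus had means well under the 57.5 CPM of their control.

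Neutrophil cytosol factor 1 is the organising subunit of the phagocyte NADPH oxidase, which makes superoxide. Its level was 49.9, 57.0, 61.9 and 44.2 CPM in the MeNQ controls and 99.3, 76.2, 82.9 and 80.5 CPM at MeNQ 851 mg/L. In the NQ experiment it was 74.5, 81.0, 86.3 and 73.0 CPM in the controls and 78.9, 54.1, 63.6 and 61.8 CPM at 750 mg/L. The MeNQ groups did not overlap, and 3 of the 4 NQ-exposed libraries lay below all of their controls. The MeNQ response was 0.67 ± 0.14 (edgeR adjusted p = 0.0267) and the NQ response -0.29 ± 0.14 (adjusted p = 0.669). The difference was 0.96 ± 0.20, with an interval from 0.55 to 1.36 (adjusted p = 0.0401). The MeNQ control was below the NQ control, at a log2 ratio of -0.56 ± 0.14 (adjusted p = 0.0197).

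Arachidonate 5-lipoxygenase-activating protein hands arachidonic acid to the enzyme that starts leukotriene synthesis. Its transcript stood at 38.9, 41.8, 40.8 and 31.6 CPM in the MeNQ controls and 65.1, 50.7, 66.2 and 47.4 CPM at MeNQ 851 mg/L. The NQ controls held 56.6, 59.2, 64.4 and 53.7 CPM and the NQ 750 mg/L libraries 46.6, 37.8, 38.3 and 50.8 CPM. Exposed and control libraries did not overlap in either experiment and were ordered in opposite directions. The difference was 1.01 ± 0.20, with an interval from 0.62 to 1.41 (edgeR adjusted p = 0.0305). Neither the MeNQ response of 0.58 ± 0.14 (adjusted p = 0.0508) nor the NQ response of -0.43 ± 0.14 (adjusted p = 0.571) passed alone.

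EVI2A-like, for a membrane protein, had the same layout at a lower level. The MeNQ controls held 7.91, 9.40, 6.99 and 6.48 CPM and MeNQ 851 mg/L 13.7, 9.89, 10.9 and 11 CPM, and the NQ controls held 11.7, 11.6, 13.2 and 12.6 CPM and NQ 750 mg/L 9.26, 8.75, 8.46 and 10.3 CPM. Neither pair of groups overlapped, and the difference was 0.98 ± 0.21 (edgeR adjusted p = 0.0401).

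Mitochondrial trans-2-enoyl-CoA reductase catalyses the last step of each round of fatty acid synthesis in mitochondria. Its transcript was at 13.0, 15, 15.1 and 12.5 CPM in the MeNQ controls and 34.6, 33.5, 29.3 and 22.2 CPM at MeNQ 851 mg/L, with no overlap. In the NQ experiment the controls held 26.9, 28.7, 30.4 and 18.7 CPM and the exposed libraries 19, 16.5, 19.1 and 23.8 CPM, which overlapped. The MeNQ response was 1.10 ± 0.21 (edgeR adjusted p = 0.0113), the NQ response -0.42 ± 0.21 (adjusted p = 0.673) and the difference 1.52 ± 0.30, with an interval from 0.91 to 2.14 (adjusted p = 0.0305).

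Neuromodulin-like encodes a protein of neuronal growth cones. It was 39.4, 42.6, 39.0 and 41.6 CPM in the MeNQ controls and 55.7, 48.3, 61.5 and 49.4 CPM at MeNQ 851 mg/L, against 59.2, 54.3, 64.3 and 52.0 CPM in the NQ controls and 53.3, 53.9, 46.2 and 46.8 CPM at NQ 750 mg/L. The MeNQ groups did not overlap and the NQ groups did, and the difference was 0.60 ± 0.13 (edgeR adjusted p = 0.0401).

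Ankyrin-3, which anchors sodium channels in the axon membrane, had the lower MeNQ response with the larger part in the NQ experiment. The NQ controls held 42.6, 49.8, 52.5 and 52.8 CPM and the NQ 750 mg/L libraries 71.6, 79.2, 74.8 and 72.0 CPM, with no overlap. The MeNQ controls held 100.8, 74.8, 77.8 and 72.1 CPM and the MeNQ 851 mg/L libraries 63.8, 73.1, 64.1 and 66.6 CPM, with overlap. The NQ response was 0.59 ± 0.12 (edgeR adjusted p = 0.224), the MeNQ response -0.28 ± 0.12 (adjusted p = 0.374) and the difference -0.87 ± 0.18, with an interval from -1.23 to -0.51 (adjusted p = 0.0396).

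Ephrin type-B receptor 3, a receptor tyrosine kinase for membrane-bound ephrin-B ligands, separated in both experiments. It was 96.3, 96.4, 88.6 and 81.9 CPM in the NQ controls and 99.4, 116, 115 and 103 CPM at NQ 750 mg/L. It was 112, 106, 108 and 92.4 CPM in the MeNQ controls and 81.3, 90.0, 86.5 and 86.8 CPM at MeNQ 851 mg/L. The exposed groups did not overlap each other either, and the controls had a log2 ratio of 0.20 ± 0.08 (edgeR adjusted p = 0.194). The difference was -0.54 ± 0.11, with an interval from -0.76 to -0.31 (adjusted p = 0.0401).

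Glutamate receptor-interacting protein 1, a scaffold of AMPA-type glutamate receptors, was 26.9, 41.2, 39.8 and 31.9 CPM in the NQ controls and 46.9, 55.3, 45.3 and 48.7 CPM at NQ 750 mg/L. The MeNQ controls held 56.5, 44.9, 45.7 and 41.8 CPM and the MeNQ 851 mg/L libraries 38.2, 33.8, 32.4 and 28.2 CPM. Neither pair overlapped, the directions were opposite, and the difference was -1.0 ± 0.21 (edgeR adjusted p = 0.0401). With counts summed over all transcripts of that protein name the difference was -0.77 and did not pass (edgeR adjusted p = 0.224).

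Tubulin polymerization-promoting protein family member 3, a microtubule-binding protein, had the smallest called difference, -0.46 ± 0.10 (edgeR adjusted p = 0.0412). It was 314, 286, 283 and 271 CPM in the MeNQ controls and 220.1, 240.0, 224 and 237 CPM at MeNQ 851 mg/L, which did not overlap. The NQ controls held 248, 269, 270.3 and 240.0 CPM and the NQ 750 mg/L libraries 291, 257, 291 and 289 CPM, where exposed library B lay among the controls.

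Of the transcripts with no informative name, Rana_pipiens_Transcript_270329 had a difference of -1.77 ± 0.34 (edgeR adjusted p = 0.0305), the largest in size of the 16. It stood at 571, 368, 284 and 259 CPM in the MeNQ controls, 156, 136, 53.4 and 79.9 CPM at MeNQ 851 mg/L, 61.1, 72.4, 61.2 and 73.4 CPM in the NQ controls and 53.9, 62.2, 65.1 and 81.5 CPM at NQ 750 mg/L. Only the MeNQ groups were apart, and this was the 1 transcript of the 16 whose 2 responses had the same sign, the NQ response being -0.03 ± 0.24. Rana_pipiens_Transcript_012637 separated in both experiments instead. It had 569, 718, 735 and 676 CPM in the MeNQ controls, 763, 819.6, 807 and 808 CPM at MeNQ 851 mg/L, 786, 812, 782 and 703 CPM in the NQ controls and 679.9, 612, 651 and 519 CPM at NQ 750 mg/L, a difference of 0.57 ± 0.11 (adjusted p = 0.0305).

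**Figure D2:**
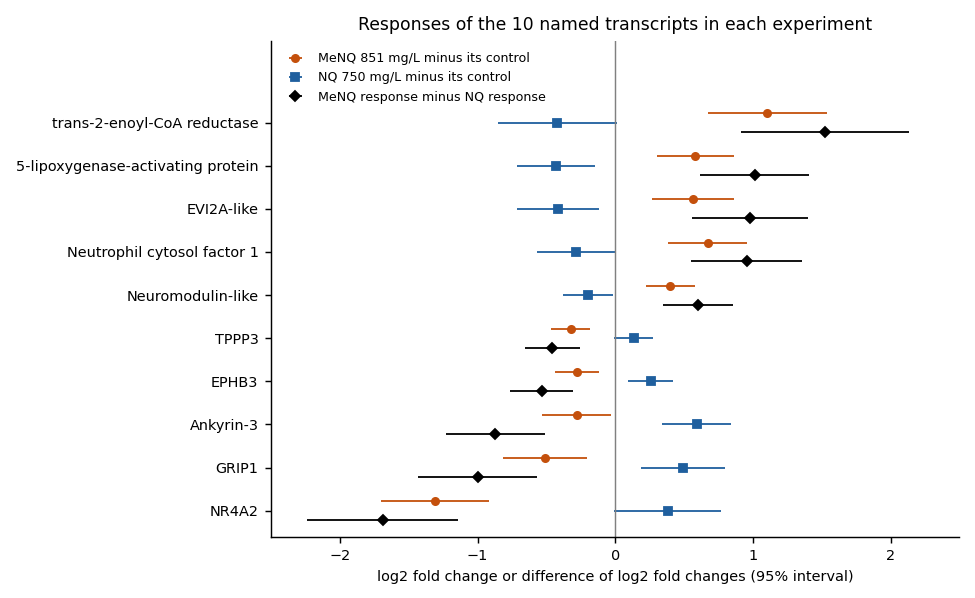
Log2 fold change against the experiment's own control for MeNQ 851 mg/L (circles) and NQ 750 mg/L (squares), and their difference (diamonds), each with its 95% interval, for the 10 named called transcripts. Circle and square lie on opposite sides of 0 in each row, and the diamonds run from 1.52 for trans-2-enoyl-CoA reductase to -1.69 for NR4A2.

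The control groups of the experiments differed in 399 of the 14068 transcripts (2.84%), and MeNQ 851 mg/L against NQ 750 mg/L in 0.341%. Both comparisons set one experiment directly against the other and share libraries with the difference, so counts among its called transcripts are only a description. Of the 16 called transcripts, 11 were also called between the control groups and 2 between the exposed groups. In all 16 the fitted difference between the controls had the opposite sign to the difference in response, and in 14 the control groups did not overlap, against 8.22% of all transcripts. Over the 5 MeNQ groups, ankyrin-3 had its highest mean in the control, 81.4 ± 13.2 CPM (SD, n = 4), against 59.9 ± 10.9, 62.9 ± 10.1, 66.9 ± 4.31 and 63.2 ± 3.56 CPM at rising doses. In the NQ experiment the ankyrin-3 control was the lowest, 49.4 ± 4.72 CPM against 72.3 ± 8.24, 67.2 ± 9.38, 74.4 ± 3.51 and 73.2 ± 8.21 CPM. Neutrophil cytosol factor 1 had its lowest MeNQ mean in the control, 53.2 ± 7.80 CPM against 72.0 ± 6.36, 80.9 ± 5.63, 84.7 ± 10.1 and 67.5 ± 2.29 CPM. The part that the level of a control group has in a difference was not tested.

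**Figure D3:**
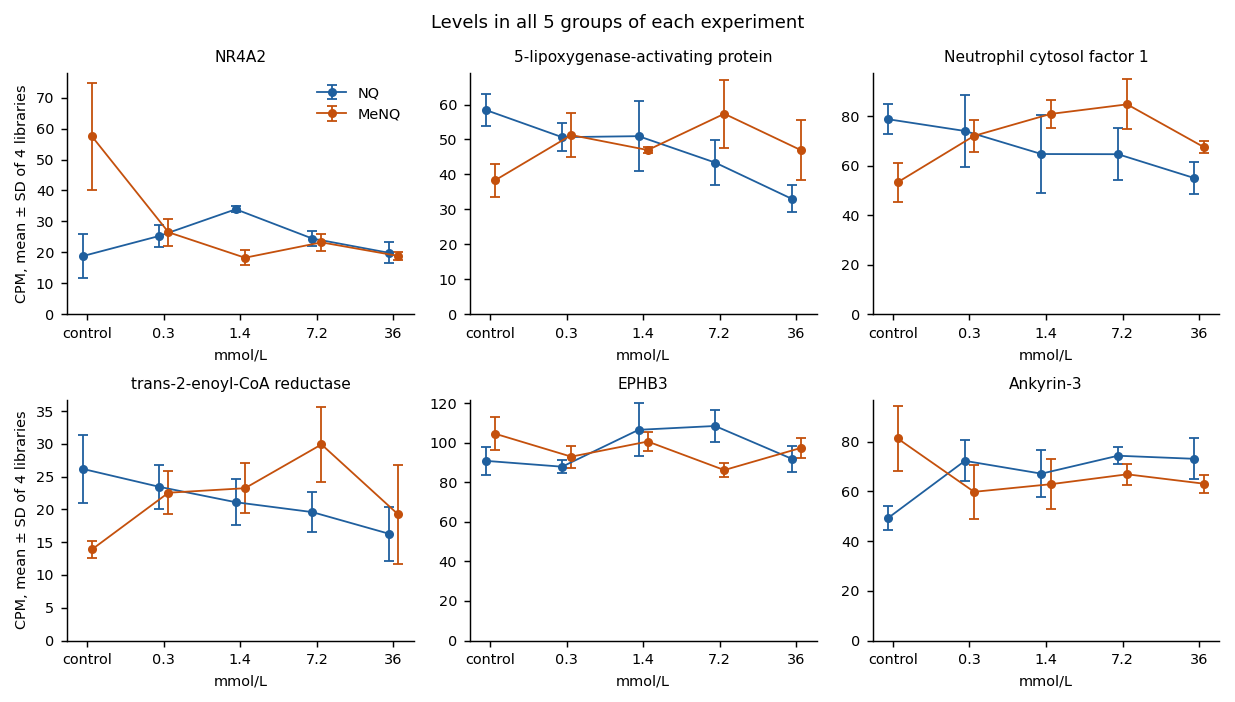
Mean level in CPM of 6 called transcripts in the control and the 4 doses (mmol/L, equally spaced) of the NQ and the MeNQ experiment, with bars of 1 SD over 4 libraries. NR4A2 averages 57.5 CPM in the MeNQ control and between 18.3 and 26.5 CPM at the 4 MeNQ doses, and ephrin type-B receptor 3 averages 86.2 CPM at MeNQ and 108 CPM at NQ at 7.2 mmol/L.

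MeNQ at 851 mg/L changed 48 transcripts against its own control, of which 27 rose (0.192%) and 21 fell (0.149%) by the edgeR quasi-likelihood test. Of these 48, 24 were also called between the MeNQ and NQ control groups, against 2.84% of all transcripts. Both comparisons use the MeNQ control libraries, and the part of that control's level in the 48 calls was not tested. Among the 15 named transcripts that rose were alpha skeletal actin 3 and alpha cardiac actin 1 of the thin filament, fast skeletal troponin T, myozenin 1 of the Z-disc, junctophilin-2-like and the trimeric intracellular cation channel type A of the calcium store. The 12 named falls included NR4A2, a kruppel-like factor family protein, tribbles homolog 1, integrin beta-6, the maintenance DNA methyltransferase Dnmt1 and nucleoporin 62. The count was 29, 23, 26 and 19 without MeNQ control A, B, C or D and 21, 18, 22 and 33 without MeNQ 851 mg/L A, B, C or D. It was 5 with only the 16 libraries and 92 with lane as a term, and none passed against a 2-fold minimum.

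Alpha skeletal actin 3 was 14500.5, 11777, 12637 and 11217 CPM in the MeNQ controls and 17262, 20472, 19937 and 18864 CPM at MeNQ 851 mg/L, with no overlap. The NQ controls held 18509, 18463, 16069 and 17014 CPM and the NQ 750 mg/L libraries 23806, 19838, 16284 and 21279 CPM, with overlap. The MeNQ response was 0.61 ± 0.14 (edgeR adjusted p = 0.0436) and the NQ response 0.21 ± 0.14 (adjusted p = 0.752). The difference was 0.40 ± 0.20, with an interval from -0.01 to 0.80 (adjusted p = 0.597), so that a difference between the compounds was not shown for this actin.

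Fast skeletal troponin T, of the calcium switch of contraction, was 2971, 2357, 2469 and 2183 CPM in the MeNQ controls and 3499.6, 3961, 3859 and 3557 CPM at MeNQ 851 mg/L. In the NQ experiment it was 3355, 3059, 3115 and 2952 CPM in the controls and 4074, 3307, 2695 and 3658 CPM at 750 mg/L. Only the MeNQ groups did not overlap. Its MeNQ response was 0.58 ± 0.12 (edgeR adjusted p = 0.0299) and the difference 0.44 ± 0.18 (adjusted p = 0.44). Of 26 muscle proteins in a list, 3 rose in MeNQ (the actins and troponin T above, against 0.192% of all transcripts) and none fell. The fitted MeNQ response was above 0 in 13 of the 26, with a median of 0.026 against -0.015 over all transcripts. Between the controls, which share libraries with these responses, the list median was -0.322 for MeNQ against NQ, and 0.017 over all transcripts. In that comparison 2 of the 26 were called higher and 3 lower, against 2.84% of all transcripts in either direction. None of the 26 passed for the difference, whose median was 0.107 against -0.040 over all transcripts and moved between 0.051 without MeNQ control B and 0.271 without MeNQ control A. Parvalbumin, the calcium buffer of fast muscle, had a MeNQ response of 1.16 ± 0.28 that missed the threshold (adjusted p = 0.0519), and myosin-7-like one of -0.61 ± 0.26 (adjusted p = 0.359).

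The kruppel-like factor family transcript was 585, 418, 450.4 and 275 CPM in the MeNQ controls and 230.4, 257, 195 and 127 CPM at MeNQ 851 mg/L, a response of -1.09 ± 0.19 (edgeR adjusted p = 0.00382). The NQ groups lay lower, at 70.2, 77.7, 89.7 and 68.2 CPM in the controls and 83.3, 71.7, 71.8 and 93.8 CPM at 750 mg/L. No library of these NQ groups reached the range of these MeNQ groups, and the difference of -1.16 ± 0.27 did not pass (edgeR adjusted p = 0.0934). Tribbles homolog 1, a pseudokinase, went from 129 ± 23.6 to 87.2 ± 12.2 CPM (SD, n = 4) with MeNQ, a response of -0.56 ± 0.12 (edgeR adjusted p = 0.0324), and its NQ response was 0.07 ± 0.12.

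Dnmt1 was 450.1, 468, 375 and 496 CPM in the MeNQ controls and 330.3, 284, 263 and 325 CPM at MeNQ 851 mg/L, a response of -0.57 ± 0.13 (edgeR adjusted p = 0.0456). In the NQ experiment it was 327, 444, 338 and 430.1 CPM in the controls and 251, 257, 359 and 352 CPM at 750 mg/L, a response of -0.34 ± 0.13 (adjusted p = 0.644). The NQ groups overlapped, both fitted responses were negative, and the difference of -0.23 ± 0.19 had an interval from -0.62 to 0.15.

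Integrin beta-6, an epithelial adhesion receptor, was 41.3, 32.3, 26.9 and 28.6 CPM in the MeNQ controls and 9.63, 11.9, 18.8 and 6.32 CPM at MeNQ 851 mg/L, a response of -1.48 ± 0.34 (edgeR adjusted p = 0.0415). Syntaxin 6, of vesicle fusion, had 486 counts over the 4 MeNQ controls and 21 counts over MeNQ 851 mg/L, a response of -3.70 ± 0.72 (adjusted p = 0.0113). The syntaxin 6 call was lost without MeNQ 851 mg/L A (edgeR adjusted p = 0.0541) or B (adjusted p = 0.0714), and in the NQ 750 mg/L libraries syntaxin 6 was split, at 1.30, 1.17, 11.5 and 13.5 CPM. One transcript of cell adhesion molecule 1 had 149 counts over the MeNQ controls and 0 over MeNQ 851 mg/L, at least 28.6-fold lower when the floor is 3 counts over the group. Summed over all transcripts of that name, the response was -0.09 (edgeR adjusted p = 0.977).

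Among the other rises, SH3 domain binding glutamic acid-rich protein was 144, 149, 146 and 154 CPM in the MeNQ controls and 246, 229, 216 and 214 CPM at MeNQ 851 mg/L. Its MeNQ response was 0.61 ± 0.11 (edgeR adjusted p = 0.00788), its NQ response 0.20 ± 0.11 (adjusted p = 0.678) and the difference 0.40 ± 0.16 (adjusted p = 0.429). Bridging integrator 2-like, a membrane-curving protein of leukocytes, was 13.0, 15.5, 14.9 and 12.2 CPM in the MeNQ controls and 24.4, 17.1, 22.6 and 19.3 CPM at MeNQ 851 mg/L. Both transcripts separated without overlap, which is only a description, as non-overlap was part of the rule for naming MeNQ rises and falls. The difference for bridging integrator 2-like, 0.83 ± 0.18, lay just outside the threshold (edgeR adjusted p = 0.0516). Muted protein, of lysosome-related organelles, rose by 0.59 ± 0.12 (adjusted p = 0.0168) and very-long-chain (3R)-3-hydroxyacyl-CoA dehydratase 1, of fatty acid elongation, by 0.64 ± 0.15 (adjusted p = 0.0499).

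No transcript passed for NQ at 750 mg/L against its control (0%) by edgeR, while 1048 had an unadjusted p under 0.05 and the DESeq2 Wald test called 116. FYN-binding protein-like, an adaptor of T cells, had the smallest p among named transcripts. It was 47.1, 75.2, 69.9 and 57.9 CPM in the NQ controls and 39.0, 35.1, 34.2 and 42.7 CPM at NQ 750 mg/L, and 41.7, 35.4, 36.3 and 47.5 CPM in the MeNQ controls and 46.7, 45.5, 44.4 and 35.6 CPM at MeNQ 851 mg/L. The NQ groups did not overlap and the MeNQ groups did, at an NQ response of -0.73 ± 0.14 (edgeR adjusted p = 0.224) and a difference of 0.83 ± 0.20 (adjusted p = 0.122). Next came ankyrin-3 above, zinc finger protein castor homolog 1 with an NQ response of 1.12 ± 0.26 (adjusted p = 0.372), 8-oxo-dGDP phosphatase NUDT18-like with 0.72 ± 0.17 and anterior gradient protein 2-B with -0.84 ± 0.20. Anterior gradient protein 2-B was the 1 of these 5 with negative fitted responses to both compounds, its MeNQ response being -0.50 ± 0.20.

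Of the 48 transcripts called for MeNQ, 9 were also called for the difference, against 0.0569% of all transcripts in each direction. The difference contains the MeNQ response and uses the same libraries, so this overlap is only a description. The responses of the remaining 39 were not shown to differ from those to NQ. In 30 of the 48 the NQ response had the same sign, 17 of those that rose and 13 of those that fell, and the experiments share no library. Over the 6355 transcripts of at least 10 CPM, 55.1% had the same sign in both responses, and Pearson's r between the log2 fold changes was 0.111 across transcripts, which are not independent replicates.

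**Figure D4:**
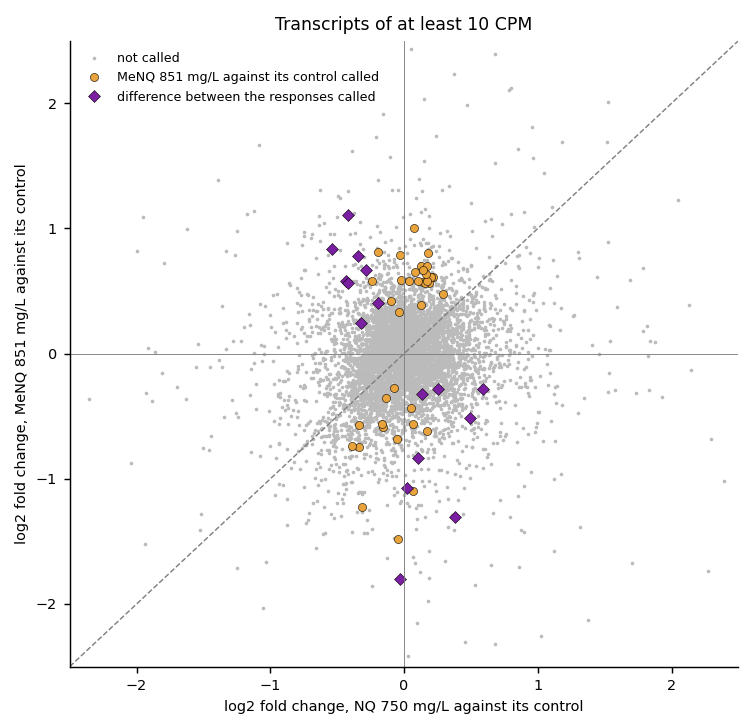
Log2 fold change at MeNQ 851 mg/L (vertical) against that at NQ 750 mg/L (horizontal), each against its own control, for transcripts of at least 10 CPM, of which 20 lie outside the axes. Diamonds are the 16 transcripts called for the difference, circles those called for MeNQ and not for the difference, and the dashed line marks equal responses; 15 diamonds lie in the upper left or lower right quadrant.

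At 10 CPM or more the difference had a median SE of 0.294, and its 95% interval reached a median of 0.599 to either side. For 3668 of these 6355 transcripts (57.7%) the whole interval lay within 1 log2 unit of 0, which leaves out a difference of 2-fold. For the rest the interval reached a difference of 2-fold in at least one direction, so the precision does not leave out a difference of that size.

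Gene lists were matched by protein name, with 1 transcript for each name. In a list of 35 leukocyte proteins, chosen after the values had been seen and so given no test, the difference was above 0 in 29 and its median was 0.432. Over all transcripts 47.2% were above 0 and the median was -0.040. In the list 3 passed for a higher MeNQ response and 0 for a lower one, against 0.0569% of all transcripts in each direction. Members were chosen with these values known, so these counts and the 29 above 0 are only a description. The list medians were 0.217 for the MeNQ response, -0.226 for the NQ response and -0.255 for the MeNQ control against the NQ control, which share libraries. Between the controls 8 of the 35 were called lower in the MeNQ control and 0 higher, against 2.84% of all transcripts in either direction. The part of the control levels in the list's differences was not tested. Complement C1q subcomponent subunit C, made by macrophages, was 55.3, 61.4, 62.9 and 61.5 CPM in the MeNQ controls and 94.4, 95.9, 82.3 and 77.8 CPM at MeNQ 851 mg/L, and 93.7, 85.6, 113 and 73.6 CPM in the NQ controls and 76.2, 77.2, 84.5 and 61.1 CPM at NQ 750 mg/L. The MeNQ groups did not overlap and the NQ groups did, and its difference of 0.83 ± 0.19 did not pass (edgeR adjusted p = 0.0993).

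In a list of 9 other immediate-early genes, which does not hold the called NR4A2, the median difference was -1.678 and none passed. Leaving out single libraries moved this median between -2.063 (without NQ 750 mg/L B) and -0.691 (without NQ 750 mg/L C), and it was -0.746 without NQ 750 mg/L D. The list medians were -0.804 for the MeNQ response, 0.877 for the NQ response and 1.5 for the MeNQ control against the NQ control, which share libraries. Over all transcripts the control median was 0.017. Between the controls 2 of the 9 were called, both higher in the MeNQ control, against 2.84% of all transcripts in either direction. The v-fos homolog, a subunit of the AP-1 transcription factor, was 1512, 774, 827 and 525 CPM in the MeNQ controls and 608, 623, 427 and 232 CPM at MeNQ 851 mg/L. It was 21.0, 19.3, 23.0 and 14.7 CPM in the NQ controls and 20.9, 23.3, 26.2 and 81.5 CPM at NQ 750 mg/L. All 8 libraries of the MeNQ groups were above all 8 of the NQ groups, and exposed and control libraries overlapped in both experiments. The difference of -1.90 ± 0.65 did not pass (edgeR adjusted p = 0.355), while the controls differed by 5.54 ± 0.55 (adjusted p = 1.26e-07). Krueppel-like factor 4, another transcription factor of the list, had a difference of -3.37 ± 0.96 (adjusted p = 0.231).

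Median differences in the lists of conjugation enzymes, antioxidant proteins, cytochromes P450 and arginine metabolism ran from -0.069 to 0.124, against -0.040 over all transcripts. Of 22 conjugation enzymes 1 rose in MeNQ, against 0.192% of all transcripts, and the median difference was -0.007. That one was glutathione S-transferase kappa 1 of mitochondria and peroxisomes. It was at 239.9, 280.4, 287 and 284 CPM in the MeNQ controls and 361, 363, 313 and 339.9 CPM at MeNQ 851 mg/L. The response was 0.33 ± 0.08 (edgeR adjusted p = 0.0415), and the difference from NQ was 0.37 ± 0.11 (adjusted p = 0.248). Its MeNQ call held in 7 of 17 alternatives. It was also the 1 enzyme of the 22 called between the controls, lower in the MeNQ control (edgeR adjusted p = 0.00488). Over all transcripts 2.84% were called between the controls. These comparisons share the MeNQ control libraries. No member passed for either compound or for the difference among 13 proteins of an antioxidant list built around the transcription factor NRF2, 11 cytochromes P450 of families 1 to 3 and 9 proteins of arginine, urea and nitric oxide metabolism. Their median differences were -0.069, 0.124 and -0.015, and leaving out single libraries gave each of these 3 lists and the conjugation enzymes medians of both signs. In the antioxidant list, heme oxygenase 1 and glutathione synthetase averaged only 0.75 and 0.59 CPM over the 16 libraries. Among 10 enzymes of methyl-group and one-carbon metabolism the median was 0.348 and none passed; it was 0.071 without NQ control C, 0.209 without NQ 750 mg/L D and 0.219 without MeNQ 851 mg/L B. Nicotinamide N-methyltransferase-like had a difference of 1.43 ± 0.61 (adjusted p = 0.485).

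In 22 cytosolic ribosomal proteins the difference was above 0 in 20, with a median of 0.406, and in 13 proteins of oxidative phosphorylation in 11, with a median of 0.307. No member of either list passed. The oxidative phosphorylation median was 0.184 without NQ 750 mg/L A, 0.198 without MeNQ control C and 0.2 without MeNQ 851 mg/L A. The MeNQ control against the NQ control, which shares libraries, had medians of -0.613 and -0.436 in these lists. In that comparison 8 of the 22 and 6 of the 13 were called, all lower in the MeNQ control. Over all transcripts 2.84% were called in either direction. The part of the control levels in these differences was not tested. Ribosomal protein S13 averaged 3280.4 ± 212 CPM in the MeNQ controls, 3964 ± 287 CPM at MeNQ 851 mg/L, 5034 ± 675 CPM in the NQ controls and 4655 ± 413 CPM at NQ 750 mg/L (SD, n = 4).

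In 59 collagens and matrix proteins the difference was above 0 in 13, with a median of -0.366, and none passed; collagen alpha-1(XI) gave -0.80 ± 0.36 (edgeR adjusted p = 0.513). Of 23 complement and coagulation proteins 18 were above 0, with a median of 0.361, and complement factor B gave 1.29 ± 0.43 (adjusted p = 0.341). In 39 neuronal and myelin proteins the median was -0.357, with neuromodulin-like called on the higher and glutamate receptor-interacting protein 1 on the lower side, against 0.0569% of all transcripts in each direction. The neuronal median moved between -0.542 without MeNQ control D and -0.1 without MeNQ control A, and was -0.179 without NQ 750 mg/L C. With lane as a term it was -0.157. The neuronal list was imprecise, its median SE of the difference being 1.359 against 0.695 over all transcripts. Among 31 chaperones the median was 0.188 and none passed; it moved between 0.109 without NQ control D and 0.335 without NQ 750 mg/L D. The complement and coagulation median moved between 0.256 without MeNQ 851 mg/L A and 0.548 without MeNQ control B. It was 0.544 without NQ 750 mg/L C.

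**Figure D5:**
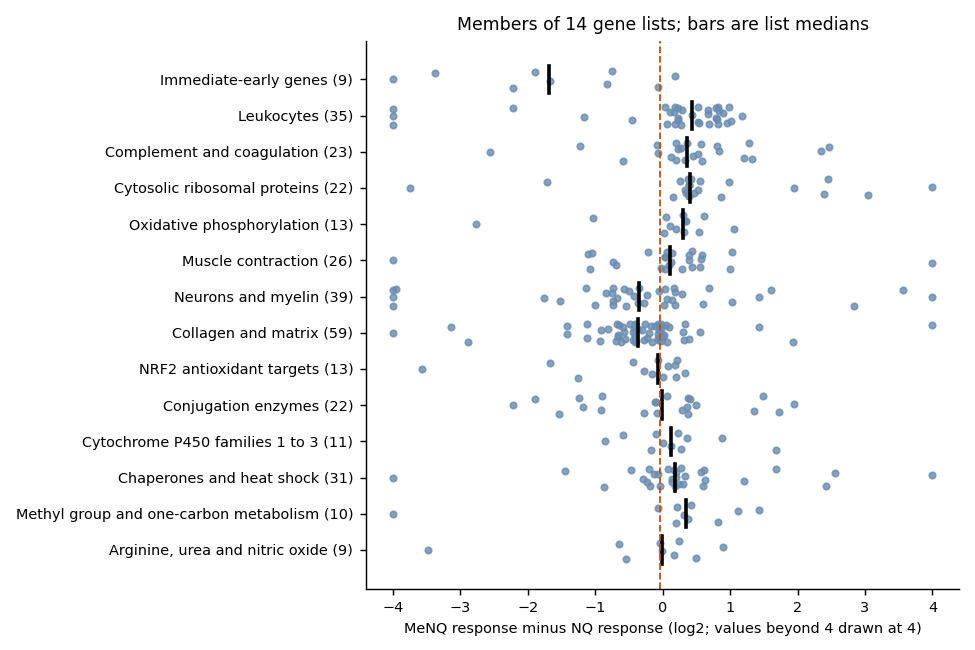
MeNQ response minus NQ response (log2) for each member of 14 gene lists (points, the number tested in brackets; values beyond 4 are drawn at 4), with a bar at each list median and a dashed line at the median of all transcripts, -0.040. The immediate-early genes have their median at -1.678 and the leukocyte list, chosen after the values were seen, at 0.432. The 14 are a selection, and some lists not drawn had medians further from 0 than the leukocyte list. These include sterol and fatty acid synthesis (-0.837), corticoid and thyroid hormone response (-0.577), matrix metalloproteinases (0.517) and haemoglobin and haem synthesis (0.841).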

How the data were processed

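RNA was measured by poly-A RNA-seq of whole tadpoles. The submitters' processing notes name bcl2fastq 1.8.4 and Salmon, with no Salmon version and no reference transcriptome or naming search. The authors deposited estimated counts per transcript for 2 runs of each library, and a table of their means. Runs were summed and the estimated counts rounded. One run column carries conflicting header lines and was assigned to NQ control A, whose deposited mean includes it. After edgeR's expression filter, which removed 5060 of 19128 transcripts, 14068 were tested with edgeR 4.0.16 (R 4.3.3, TMM scaling, quasi-likelihood F test) in 1 model of 10 groups and 40 libraries. The difference between the compounds is a contrast of contrasts, p-values were adjusted over all transcripts, and the 0.05 threshold applies. The script was tested on simulated data in which the control groups had equal means, unlike the measured ones, so that test does not bear on control levels. CPM were computed from the summed counts and effective library sizes. DESeq2 1.42.0, other scalings, filters, lane and left-out libraries were alternatives. Libraries are separate beakers, per the labels.

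Named transcripts had at least 1 CPM on average. For the difference they were the passing ones. For MeNQ they were the 8 largest passing rises and falls with no overlap between groups, and for NQ, where fewer than 5 passed, the 5 with the smallest p. Each list gave up to 3 members with the smallest p for the difference, and others are described as examples chosen after their values were seen. Comparison, lists and tests were chosen with earlier results of these data known, false name matches were removed by name, and the leukocyte list was added after the values were seen. No sequence was used here.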

Additional observations from a re-analysis of the deposited data

Results flagged for a closer look

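In 16 transcripts the response to MeNQ at 851 mg/L differed from that to NQ at 750 mg/L by the edgeR test of the difference itself. The log2 differences of the named ones were -1.69 for nuclear receptor subfamily 4 group A member 2, 1.01 for arachidonate 5-lipoxygenase-activating protein-like, 1.52 for trans-2-enoyl-CoA reductase, -0.87 for ankyrin-3, 0.96 for neutrophil cytosol factor 1, 0.60 for neuromodulin-like, -0.54 for ephrin type-B receptor 3, -1.0 for glutamate receptor-interacting protein 1, 0.98 for EVI2A-like and -0.46 for tubulin polymerization-promoting protein family member 3. The 6 transcripts with no informative name had differences of -1.10, -0.94, -1.77, 0.57, 1.38 and 1.13.

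A single library stood apart from the other 3 of its group in 4 of the 128 groups of 4 examined, and chance alone flags about 1 group in 20. Tubulin polymerization-promoting protein family member 3 was lowest in NQ 750 mg/L B, at 257 CPM. Glutathione S-transferase kappa 1 was lowest in MeNQ control A, at 239.9 CPM, as was trimeric intracellular cation channel type A, at 513 CPM. Apoptosis antagonizing transcription factor was lowest in MeNQ 851 mg/L C, at 50.4 CPM.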

How the results depend on the processing

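The counts of called transcripts were 16 for the difference, 48 for MeNQ and 0 for NQ. With only the 16 libraries fitted they were 0, 5 and 0, and against a 2-fold minimum 0, 0 and 0. With lane as a term, chosen after seeing the data, they were 4, 92 and 0, and the DESeq2 Wald test gave 187, 332 and 116, which held all 16 and all 48. With the replicate letter as a block they were 12, 76 and 0; the letters do not pair the libraries, whose same-letter deviations correlated between -0.0232 and 0.0392, with 5 of the 16 libraries closest to their own letter. Leaving out single libraries gave 1 to 20 for the difference, 18 to 33 for MeNQ and 0 to 1 for NQ. DESeq2 size factors, no filter, the mean of the runs and counts summed by protein name kept the 3 counts within 1.5 times. None of the 16 called differences and 48 called MeNQ responses changed sign; transcripts that did not pass were not compared across alternatives. NR4A2 passed for the difference in 23 of 25 alternatives, not with only the 16 libraries (edgeR adjusted p = 0.244) or against the 2-fold minimum. Among lists, leaving out single libraries moved the median difference between 0.371 and 0.518 for leukocytes and between -0.387 and -0.297 for collagens. It gave 0.328 to 0.599 for ribosomal proteins and 0.071 to 0.446 for one-carbon enzymes. With the replicate letter as a block the leukocyte median was 0.289, and with the mean of the runs the collagen median was -0.402. The leukocyte list was chosen after the values were seen. The median SE of the difference over all transcripts was 0.695, with 4 libraries a group.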

Other observations

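Interferon regulatory factor 9, a transcription factor of the interferon response, had counts in 1 library of NQ control (C, 22.5 CPM) and 1 library of MeNQ 851 mg/L (D, 17.2 CPM) and none in the other 14 of the 16 libraries. Its fitted difference did not pass (edgeR adjusted p = 0.38).

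Transcripts were counted that had at most 3 counts over one group and a mean of 1 CPM or more in each other group. They numbered 32 for the NQ control, 16 for NQ 750 mg/L, 20 for the MeNQ control and 30 for MeNQ 851 mg/L. A fixed limit of 3 counts is looser at lower depth. Libraries held 5.50 M to 14.5 M counts at MeNQ 851 mg/L and 13.3 M to 21.7 M in its control. The part of depth in these numbers was not tested.

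In 4 haemoglobin and haem synthesis proteins all differences were above 0, with a median of 0.841, and in 8 proteins of the intestinal epithelium none was, with a median of -0.338. Without MeNQ 851 mg/L A the first median was 0.489, with 3 of 4 above 0, and the second -0.222, with 1 of 8 above 0. Without NQ control C the intestinal median was -0.186. No member of either list passed. Matrix metallopeptidase 9, which neutrophils release, had a difference of 2.15 ± 0.61 (edgeR adjusted p = 0.225). In a list of 8 matrix metalloproteinases the difference was above 0 in only 5, with a median of 0.517, and none passed. That median was 0.166 without NQ control B and 0.174 without MeNQ 851 mg/L B.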
